A study of Drosophila melanogaster with 59 samples.

Results

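Long RNA of unfertilized eggs was compared between 2 fly lines, Fab2L and w1118, over the genes with an FPKM above 1 in at least 2 of their 4 libraries. FPKM is a read count scaled to the length of the transcript and to the depth of the library. The rule kept 6624 of the 17558 genes in the files, 6457 of them above 1 FPKM in all 4 libraries. Another 45 genes passed through the Fab2L libraries alone and 65 through the w1118 libraries alone, and 94 of these were called different, as genes kept in this way had to differ.

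The w1118 eggs carry the w[1118] mutation of the eye color gene white and no transgene, and the Fab2L eggs carry w[1118] together with the Fab2L transgenic insertion, a Fab-7 element of the bithorax complex joined to a mini-white reporter. Both lines are labelled as Oregon-R strain, and each gave 2 libraries of RNA above 200 nt, made after removal of ribosomal RNA and without a poly(A) step. From eggs of Fab2L White* and Fab2L Red*, which descend from Fab2L, 2 libraries each entered the same fit to estimate the spread. The labels state neither separate cultures for the 2 libraries of a line nor the number of eggs or mothers, so a p-value measures the spread between libraries, which may be technical. The lines differ in the transgene and in whatever else their stocks differ in, and these cannot be told apart with 1 stock of each.

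A Drosophila egg is loaded with RNA made in the mother by the nurse cells of the ovary, and the embryo's own genome becomes active only after fertilization. RNA of an unfertilized egg is therefore maternal, and it holds the messages for meiosis, for the first nuclear divisions, for the body axes and for the future germ cells. Polycomb group proteins, for which the Fab-7 element is known as a target, are loaded in the same way. In a bulk egg sample, fewer eggs of one kind and less RNA per egg cannot be told apart.

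Reads worked back from FPKM numbered 30.3 and 27.8 M for the Fab2L libraries and 34.9 and 35.6 M for w1118. Of 12 egg and maternal germ line markers in the files, 11 passed the threshold, with summed FPKM of 2998 to 2999 in Fab2L and 3178 to 3195 in w1118. osk, whose RNA marks the germ plasm, stood at 441 and 441 FPKM in Fab2L and 473 and 482 in w1118. All 20 eggshell markers and all 19 testis markers stayed below 1 FPKM. Eggshell markers summed to 2.4 and 2.3 FPKM in Fab2L and 0.957 and 0.961 in w1118, and testis markers to 2.11 and 2.38 against 0.355 and 0.414. Of 20 early zygotic markers 19 stayed below 1 FPKM, with summed levels of 17.2 to 18.2 FPKM in Fab2L and 14.9 to 16.4 in w1118. Of the other somatic lists, 13 of 15 neuronal, 9 of 11 muscle, 9 of 10 fat body and 13 of 14 midgut markers stayed below 1 FPKM. Abd-B, the bithorax complex gene that Fab-7 regulates in the body, had 1 read in 1 Fab2L library and none in the other 3.

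The reporter was nearly silent in eggs. The white gene w (X:2790599-2796466, dm6), which encodes a transporter subunit for eye pigment precursors and also takes the reads of mini-white, had 3 and 4 reads in Fab2L and 18 and 16 in w1118. These reads correspond to 0.0423 and 0.0605 FPKM in Fab2L and 0.231 and 0.199 in w1118. The eggs with the reporter were thus the lower pair, w is not among the 6624 genes, and no test was made. In heads of adult males the order was the opposite, with 5.68 and 5.81 FPKM in Fab2L and 0.193 and 0.228 in w1118.

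Of the 6624 genes, 970 were called higher and 966 lower in Fab2L eggs (limma on log2(FPKM + 1), Benjamini-Hochberg adjusted p under 0.05), which is 29.2% of all, 14.6% higher and 14.6% lower. Most differences were small. The median difference among called genes was 0.29 upward and -0.35 downward on the log2(FPKM + 1) scale, and 73.8% of the called genes lay within 0.5 of 0. A difference above 1 was reached by 76 higher and 107 lower genes, and above 2 by 19 and 19. When the 20 most abundant RNAs were removed and the rest rescaled, 1239 genes were called higher and 583 lower, and the median of all genes moved up by 0.08. For genes with small differences the direction therefore depends on the scaling. The 2 Fab2L libraries did not overlap the 2 w1118 libraries for 66.7% of the 6624 genes and for all 1936 called genes. Groups that do not overlap therefore add nothing to a call.

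Calls of genes that differed by more than 1 held up better than the rest. Fits that each left out 1 of the 4 libraries made 1150 to 1450 calls, and 945 genes were called in the full fit and in all 4 of these, 171 of them among the 183 genes beyond 1. The lowest counts came without w1118 replicate 1 (1150) and without Fab2L replicate 2 (1167).

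**Figure D1:**
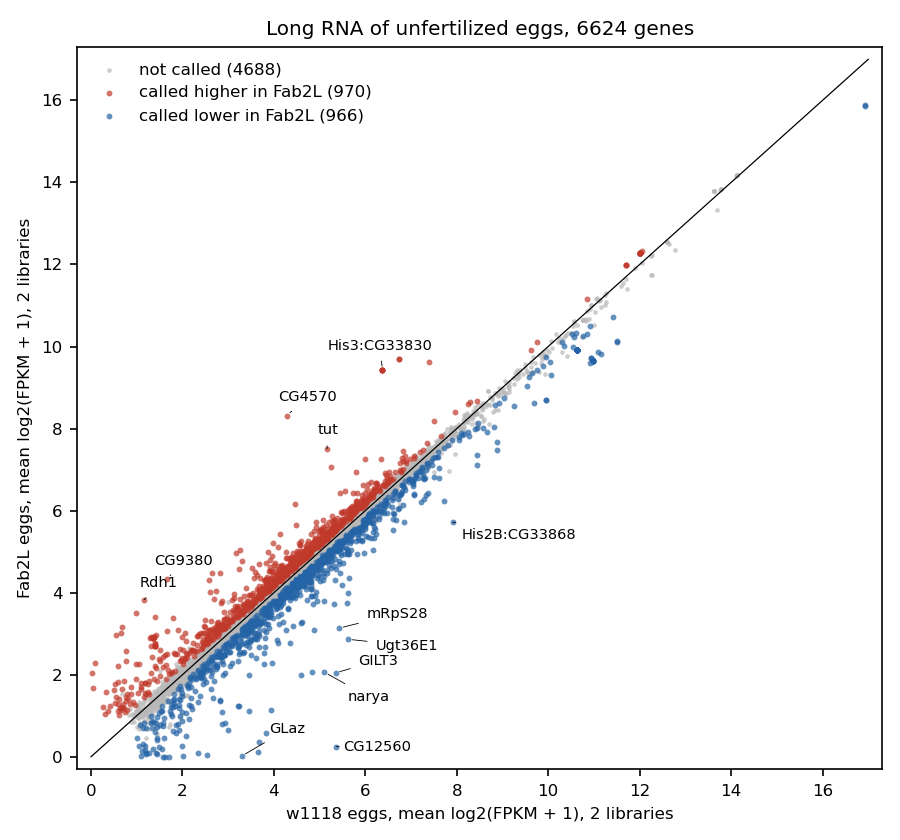
Mean log2(FPKM + 1) of each of the 6624 genes in Fab2L eggs (vertical axis) against w1118 eggs (horizontal axis), 2 libraries per line, with genes called higher in red, lower in blue and others in gray. Most called genes lie close to the diagonal, while CG4570, tut and the His3 copies lie far above it and CG12560, GLaz, GILT3 and narya far below.

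The gene with the largest deficit in Fab2L eggs was CG12560 (2L:8008302-8009477), a protein-coding gene. Its FPKM was 0.233 and 0.143 in the Fab2L libraries, from 7 and 4 reads, and 39.2 and 41.4 in the w1118 libraries, from 1292 and 1406 reads. CG12560 passed the threshold through w1118 alone and so had to differ. The groups lay far apart, and the difference was -5.12 on the log2(FPKM + 1) scale (SE 0.11, limma adjusted p = 9.38e-08). White* and Red* eggs also stood below 1 FPKM, between 0.124 and 0.502. CG30054 (2R:12623726-12625352) showed the same near absence, with 1 and 5 reads in Fab2L against 413 and 461 in w1118 (0.0296 and 0.159 against 11.1 and 12.1 FPKM, log2 difference -3.53, adjusted p = 2.12e-07). CG30054, too, had passed through w1118 alone.

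GLaz (2R:13163959-13168032) encodes Glial Lazarillo, a lipocalin of the apolipoprotein D family. It had 1 and 0 reads in Fab2L eggs and 352 and 370 in w1118 eggs, or 0.0273 and 0 FPKM against 8.75 and 8.93. The difference was -3.28 (SE 0.08, limma adjusted p = 2.07e-07), in a gene that passed the threshold through w1118 alone and so had to differ. In heads GLaz was abundant in both lines, at 30.1 and 28.6 FPKM in Fab2L and 34.1 and 27.5 in w1118, so the head libraries overlapped while the egg libraries did not.

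narya (X:19475063-19476055) encodes a RING finger protein that acts in the formation of meiotic double-strand breaks. It stood at 3.1 and 3.26 FPKM in Fab2L and 34.4 and 32.4 in w1118, a difference of -3.04 (SE 0.08, limma adjusted p = 2.12e-07). Both Fab2L libraries were far below both w1118 libraries, and White* (4.06 and 3.31) and Red* (1.14 and 1.04) were low as well. GILT3 (3R:23677358-23678421), a thiol reductase of the lysosomal GILT family, had 3.17 and 3.09 FPKM in Fab2L and 39.6 and 40 in w1118 (log2 difference -3.31, adjusted p = 9.38e-08).

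Other genes of this size of deficit came from several families. RpS10a, a paralog of the ribosomal protein gene RpS10b, had 1.04 and 1.36 FPKM against 14.3 and 14.4, a difference of -2.81. Ugt36E1, a UDP-glycosyltransferase that conjugates small molecules, had 6.35 and 6.21 against 46.9 and 49.5 (-2.76). The long noncoding RNA lncRNA:CR43837 (log2 difference -2.76), the protein-coding gene CG12519 (-3.31) and sncRNA:CR43603 (-3.23, a 186 base RNA below the size limit of these libraries) complete the 10 lowest genes. CG12519 and sncRNA:CR43603 had passed the threshold through w1118 alone and so had to differ. Outside these 10, mRpS28, a protein of the small mitochondrial ribosomal subunit, had 7.67 and 7.93 FPKM against 40 and 44.2 (-2.29). For RpS10a, Ugt36E1 and mRpS28 the groups did not overlap, and the limma adjusted p was 3.4e-06 or less in each. The annotated spans of narya, RpS10a, Ugt36E1, mRpS28 and sncRNA:CR43603 each overlap another gene, and whether reads were counted by strand is not given in the sources used here, so reads of overlapping partners could not be separated.

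Among genes with higher RNA in Fab2L eggs, CG4570 (3R:10856807-10858066) showed the largest difference. This protein-coding gene reached 306 and 330 FPKM in Fab2L and 19.4 and 17.6 in w1118, on 11628 and 11671 against 810 and 756 reads. The groups did not overlap, and the difference was 4.03 (SE 0.07, limma adjusted p = 7.03e-08). White* (314 and 302) and Red* (249 and 230) stood close to Fab2L.

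tut encodes an RNA-binding protein that, together with Bam and Bgcn, restricts divisions of spermatogonia in the testis. In eggs it was at 170 and 192 FPKM in Fab2L and 33.3 and 36.3 in w1118, a difference of 2.35 (SE 0.11, limma adjusted p = 2.8e-06). White* eggs resembled Fab2L at 190 and 204, whereas Red* eggs at 47.5 and 38.3 were nearer to w1118. tut was also higher in Fab2L heads (1.30, limma adjusted p = 0.000392).

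Rdh1 (2R:7665828-7667343), a retinol dehydrogenase, had 12.1 and 14.4 FPKM in Fab2L against 1.17 and 1.31 in w1118 (2.67, limma adjusted p = 2.45e-07). Its annotated span overlaps DCTN4-p62. CG9380 (2R:25183628-25255318) was at 18.9 and 19.5 FPKM in Fab2L, 2.02 and 2.36 in w1118 and only 0.181 to 0.351 in White* and Red*. For this gene Fab2L stood above all other lines (2.67, adjusted p = 2.12e-07), but its annotated span holds Kr and 3 other genes. Ugt35A1, another UDP-glycosyltransferase, had 29.4 and 31 FPKM against 8.12 and 7.87 (1.80, adjusted p = 2.12e-07).

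**Figure D2:**
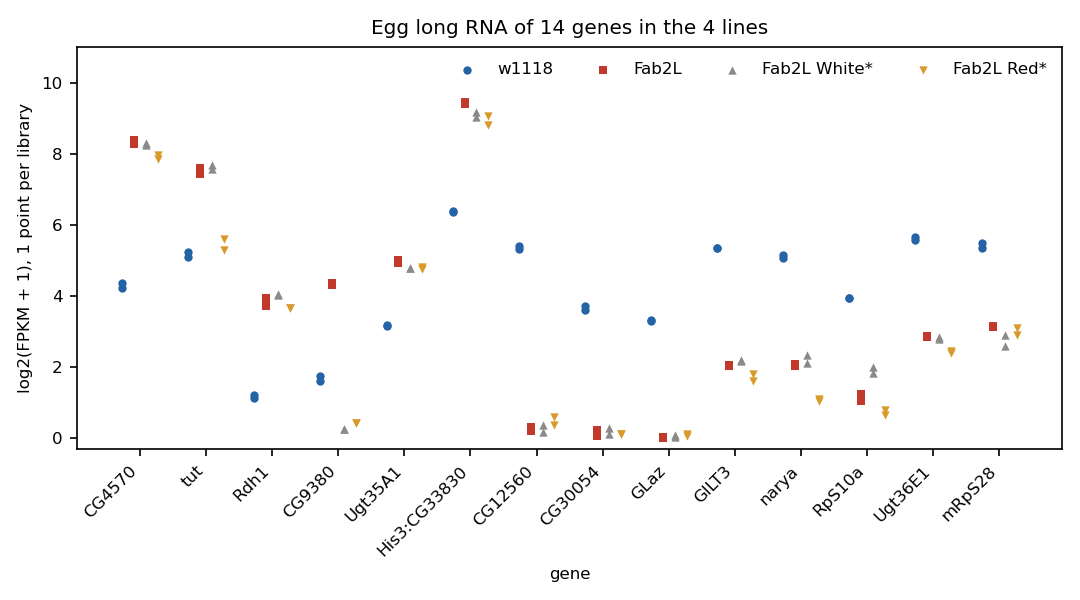
log2(FPKM + 1) of 14 genes in each egg library of w1118, Fab2L, White* and Red* (1 point per library, 2 per line). The 2 libraries of a line lie close together, and Fab2L never overlaps w1118, as for every called gene. White* and Red* stand near Fab2L for most genes but near 0 for CG9380, while Red* is near w1118 for tut.

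White* and Red* were compared with both lines by the side of the midpoint between the Fab2L and w1118 means on which their libraries fell. Of the 1936 called genes, both White* libraries fell on the Fab2L side for 1372 and on the w1118 side for 394, and the Red* counts were 1278 and 418. Among the 183 genes beyond 1, the Fab2L side took 156 for White* and 154 for Red*, and the w1118 side 19 and 22. Over all 6624 genes the White* libraries fell together on the Fab2L side for 54.5% and on the w1118 side for 31.1%. These libraries entered the fit that made the calls, so the counts are a description.

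Replication-dependent histone genes lie in a repeated array on 2L and held 44.7% and 46.6% of the summed FPKM in Fab2L and 38.2% and 39.4% in w1118. Their summed FPKM differed less, at 475091 and 461343 in Fab2L and 455046 and 452347 in w1118. The share of the signal recognition particle genes, mostly 7SL RNA, lay the other way, at 14.6% and 9.47% against 22.5% and 20.3%. Histone copies are nearly identical, reads could be shared or split among copies in counting, and values of single copies are uncertain. Copies with equal reads in the 4 libraries, that is with the same read pattern, repeat 1 measurement. The 23 His1 copies held 17 distinct patterns, the 20 His2A copies 6, the 23 His3 copies 14 and the 22 His4 copies 8. Counts and shares of called copies are therefore not those of separate genes. Of 111 copies, 108 were tested, 41 were called higher and 29 lower (64.8% called, against 29.2% of all genes), with a median difference of 0.07. In each fit that left out 1 library the counts were 27 higher and 29 lower.

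The copies moved in blocks along the array. Of the 23 His3 copies, 5 neighbours from CG33818 to CG33830 had nearly equal reads (10387 to 10390 in Fab2L replicate 2) and stood at 670 and 699 FPKM in Fab2L against 80.7 and 83.2 in w1118 (log2 difference 3.05, limma adjusted p = 2.45e-07). The other 18 His3 copies fell by 0.70, from a mean of 1574 FPKM to 968. His1 was split likewise, with His1:CG33855 and His1:CG33858 at 827 and 839 FPKM against 104 and 108 (2.96), 4 copies called higher and 10 lower. Summed over all copies, His3 had 20531 and 21172 FPKM in Fab2L and 29091 and 28397 in w1118, and His1 26439 and 27186 against 36792 and 37783. For both histones the sums over copies were thus lower in Fab2L, where the copies called with the largest differences were higher.

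His2B showed the same opposition. 19 of 20 tested copies were called higher in Fab2L (median over the 20 copies 1.54), at low levels. Their mean FPKM was 5.49 to 6.64 in Fab2L and 1.45 to 1.65 in w1118. The 20 copies held only 11 distinct read patterns, with 6 copies in the largest identical set. His2B:CG33868 at the end of the array had 53.1 and 50.2 FPKM against 232 and 249 (-2.20). The sum over His2B copies was 183 and 159 FPKM in Fab2L and 259 and 283 in w1118. His2A copies summed to 96208 and 97389 against 78678 and 80215 FPKM, with a median difference of 0.29. Of 20 copies, 13 were called higher, but 0 were in any of the 4 limma fits without 1 library and 3 were with the replicate block, while edgeR, DESeq2 and the fit of 4 libraries called all 20. All 20 had an unadjusted limma p under 0.05. Of 22 His4 copies 0 were called by limma, edgeR or DESeq2, and 0 had an unadjusted limma p under 0.05, although their sums of 331730 and 315438 FPKM in Fab2L lay just above the 310227 and 305670 of w1118.

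**Figure D3:**
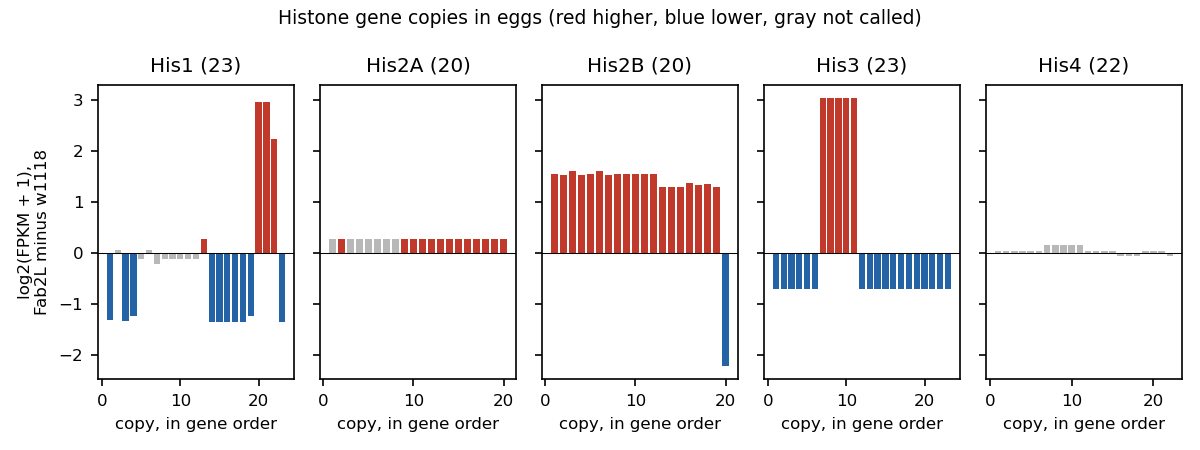
Difference in log2(FPKM + 1), Fab2L minus w1118 eggs, for each tested copy of the 5 replication-dependent histones in gene order along the array, red for called higher, blue for called lower and gray for not called. Blocks of neighbouring His3 and His1 copies and the last His2B copy go against the rest of their family.

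Some cytosolic ribosomal protein genes were called lower and none higher. Of 81 tested genes for cytosolic ribosomal proteins, 27 were called lower and 0 higher by limma, as were 30 and 0 by edgeR and 38 and 0 by DESeq2 on the recovered reads, with a median difference of -0.19 against 0.00 over all genes. The 33.3% called lower compare with 14.6% of all genes, and 54 of the 81 were not called. At an unadjusted limma p under 0.05 the counts were 38 and 0. Besides RpS10a, the largest deficits were in sta (142 and 135 FPKM against 393 and 310, -1.33), RpS2 (203 and 201 against 509 and 439, -1.22) and RpLP0 (166 and 157 against 370 and 327, -1.10), proteins of the small subunit and of the ribosomal stalk. The w1118 libraries were above the Fab2L libraries in all 3. The number called lower was 12 without w1118 replicate 1, 14 without either Fab2L library and 29 without w1118 replicate 2, and 18 with the 20 most abundant RNAs removed. Summed over 88 genes, cytosolic ribosomal protein RNA was at 83880 and 84640 FPKM in Fab2L and 98265 and 94463 in w1118, and White* and Red* lay between 79184 and 84614. As a share of each library's summed FPKM the lines overlapped, at 7.89% and 8.56% in Fab2L and 8.24% and 8.23% in w1118.

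Among nuclear genes for mitochondrial proteins, more were called lower than higher. Of 70 genes for mitochondrial ribosomal proteins, which are encoded in the nucleus, 22 were called lower and 2 higher (median -0.12). The 34.3% called compare with 29.2% of all genes, which were balanced at 14.6% each way. With the 20 most abundant RNAs removed 13 were lower and 3 higher. mRpL2 had 8.23 and 9.18 FPKM against 24.2 and 23.1 (-1.35), and mRpL54 had 32.1 and 32 against 71 and 70.5 (-1.12). Of 66 nuclear subunits of oxidative phosphorylation, 17 were called lower and 1 higher (median -0.16). The 27.3% called in both directions is near the 29.2% of all genes, but calls of all genes were balanced at 14.6% each way. ND-B14 of complex I fell by 0.97 and Cyt-c1 of complex III and COX8 of complex IV fell by 0.68 each, while ND-42, also of complex I, rose by 0.68. The number of lower subunits was 7 without w1118 replicate 1 and 8 without Fab2L replicate 2 or with the 20 most abundant RNAs removed.

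Of the 15 tested transcripts of the mitochondrial genome, 0 were called in the limma fit of 8 libraries or by edgeR or DESeq2 on the recovered reads, 1 had an unadjusted limma p under 0.05, and the median was -0.31. A fit of only the 4 compared libraries called 7 lower and 1 higher. In the fit of 8 libraries the spread included a Red* library with a summed mitochondrial level of 2759 FPKM, where its pair had 13927. Fab2L had 14419 and 14239 FPKM and w1118 20285 and 18262, without overlap. Of 34 proteasome genes, 7 were called lower, led by the ATPase subunit gene Rpt4 (-0.65), and 2 higher, led by Prosalpha6 (0.45). The 26.5% called is near the share of all genes.

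Short transcripts were lower in Fab2L as a class, and the values stand beside these lists because many of their genes are short. For 79 genes with a counted length, the exon length that turns FPKM into whole reads, below 300 bases, the median difference was -0.66, with 45.6% called lower and 3.8% higher. The median was -0.07 from 300 to 1000 bases, where the median ribosomal protein gene lies at 916 bases, and 0.03 at 4000 bases or more. RpS2, RpLP0, sta and mRpL2 are longer, at 1039 to 1338 bases, in a class from 1000 to 1500 bases with a median of -0.02. Between the 2 Fab2L libraries, replicate 2 was below replicate 1 by a median of 0.31 in the shortest class, and in w1118 by 0.12. The part of transcript length in the results for ribosomal, mitochondrial and small nuclear RNAs was not tested. With genes under 300 bases left out, 964 were called higher and 929 lower.

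Spliceosomal small nuclear RNAs, the RNA cores of the particles that remove introns, were among these short RNAs. 13 of 23 tested were called lower and 0 higher by limma (median -0.73), also at an unadjusted p under 0.05. The 56.5% called lower compare with 14.6% of all genes. edgeR and DESeq2 called 12 and 11 lower and 0 higher, and limma 9 without w1118 replicate 1. The U2 gene snRNA:U2:38ABa had 1447 and 851 FPKM in Fab2L and 3090 and 2728 in w1118 (-1.39, limma adjusted p = 0.00267). Both Fab2L values were below both w1118 values, yet they differed from each other as well. The near-identical 7SL genes 7SLRNA:CR32864 and 7SLRNA:CR42652, RNA of the signal recognition particle, had 77703 and 46564 FPKM against 133906 and 116158 for the first (-1.05, adjusted p = 0.0165), a call that 3 of the 4 fits without 1 library did not make. Copies of U1, U2 and 7SL can share reads, and the labelled size limit of 200 nt lies above the 164 to 192 bases of the U1 and U2 genes named here, so these levels are those of what the libraries retained.

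**Figure D4:**
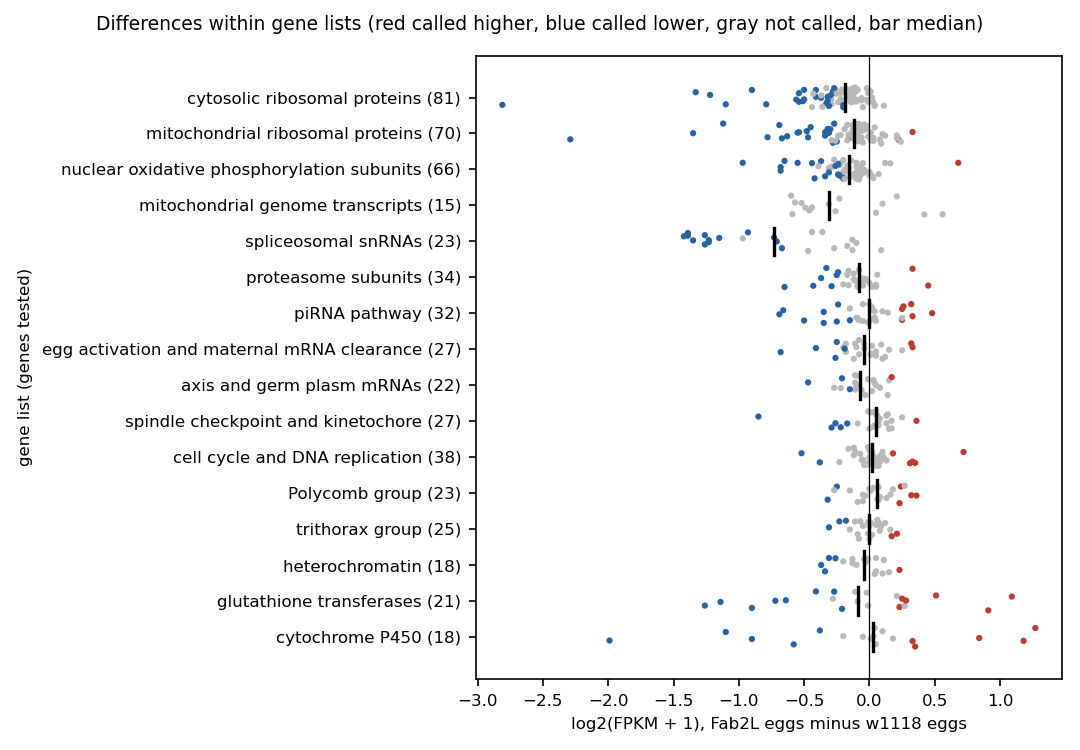
Difference in log2(FPKM + 1), Fab2L minus w1118 eggs (horizontal axis), of each tested member of 16 gene lists, red for called higher, blue for called lower, gray for not called, with a bar at the list's median. Ribosomal, mitochondrial and small nuclear RNA lists have medians below 0, and the piRNA, Polycomb and detoxification lists lie on both sides.

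The lists of maternal messages below, up to the histone variants and chaperones, are read against the 29.2% called among all genes. Of 22 axis and germ plasm genes, 1 was called higher and 3 lower (18.2%, median -0.07). BicD, which links RNA cargo to dynein, was at 9.28 and 9.91 FPKM against 13.6 and 13.8 (-0.47, limma adjusted p = 0.00486), and gcl, tud and tor were within 0.21 of 0, with calls lost in 2 to 4 of the fits without 1 library. Among 11 genes of the dorsal group, which sets the dorsoventral axis, snk (0.25) and spz (-0.29) were called (18.2%), and neither was in the fits without Fab2L replicate 2 or w1118 replicate 1.

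Egg activation and clearance of maternal RNA gave 2 higher and 5 lower of 27, and this 25.9% is near the share of all genes. The 3 members named here were called in each fit without 1 library. cort, a meiosis-specific activator of the anaphase-promoting complex, fell by 0.68 (21.8 and 20.6 FPKM against 33.6 and 35.7, limma adjusted p = 0.000158), and mtrm, an inhibitor of Polo kinase in oocytes, fell by 0.41. smg, an RNA-binding protein that triggers decay of maternal messages, rose by 0.33, with 155 and 141 FPKM against 118 and 117. Of 27 spindle checkpoint and kinetochore genes, 5 were called lower, with the kinetochore protein gene Nuf2 at 38.1 and 40.9 against 68.1 and 76.1 FPKM (-0.85), and 1 higher, Nnf1b (0.36), or 22.2% called. With the 20 most abundant RNAs removed 1 was lower and 2 higher. The 38 cell cycle and replication genes gave 5 higher and 2 lower (18.4%), with the GINS complex gene Psf1 rising by 0.72 and PCNA, the sliding clamp of DNA polymerase, falling by 0.52.

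Besides tut, the germline differentiation list of 13 had 3 lower genes, or 30.8% called in all. bam, the differentiation factor of germline cysts, was at 21.7 and 23 FPKM against 29 and 31 (-0.41), how at -0.42 and the germline gap junction gene zpg at -0.35.

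The piRNA pathway, in which short RNAs guide Piwi proteins to silence transposons in the germ line, had 14 of 32 tested genes called (43.8%, against 29.2% of all genes), 8 lower and 6 higher, with a median of 0.00. Gasz had 44.4 and 42.8 FPKM in Fab2L against 71.3 and 71.1 in w1118 (-0.69). qin, a component of the nuage where piRNAs are amplified, had 7.18 and 6.8 against 11.8 and 11.5 (-0.66). piwi itself was at 54.6 and 54.5 FPKM in Fab2L and 76.6 and 79 in w1118 (-0.50, limma adjusted p = 0.000111). rhi, which marks the clusters from which piRNA precursors are transcribed, rose by 0.48, from 31.8 and 32.8 to 45.1 and 45.6 FPKM. The Fab2L and w1118 libraries did not overlap for any of these 4, as for all 1936 called genes. In the miRNA and siRNA machinery, 3 of 15 genes were higher and 1 lower, or 26.7%, and all 4 lay between -0.33 and 0.32. The fits without Fab2L replicate 2 or w1118 replicate 1 called 0 of these 15.

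Polycomb and trithorax group genes, the chromatin factors that keep genes off or on through cell divisions, showed small differences. Of 23 Polycomb group genes 4 were called higher and 2 lower (26.1%, median 0.06). Kdm2 stood at 12.8 and 12.3 FPKM against 9.36 and 9.76 (0.36, limma adjusted p = 0.00127), and Su(z)12, a subunit of the H3K27 methyltransferase, at 5.89 and 5.72 against 4.43 and 4.48 (0.32). Psc and Pc of the Polycomb repressive complex that binds this mark had -0.32 and -0.25, and each was called in 1 of the 4 fits that left out a library. With the 20 most abundant RNAs removed, 6 Polycomb genes were called higher and 0 lower by limma.

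Of 25 trithorax group genes, 2 were called higher and 3 lower (20%), all within 0.31 of 0, and none was called in more than 1 of the 4 fits without a library among the 4 named by size, Set1, osa, mor and Ptip. The heterochromatin list had 4 lower genes of 18 and 27.8% called, among them Su(var)3-9, the H3K9 methyltransferase (-0.31), and 1 higher. Of 11 insulator protein genes, CTCF (0.20) and Ibf1 (0.22) were called higher, a share of 18.2%. Of the 4 fits without 1 library, 1 called CTCF and 2 called Ibf1, and the fits without Fab2L replicate 2 or w1118 replicate 1 called no insulator gene. Among 14 histone variant and chaperone genes Caf1-105 and Chd1 were higher and Nlp lower (21.4%).

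Several genes of detoxification were called in each direction. Of 21 tested glutathione transferases, 6 were called higher and 8 lower (66.7%, against 29.2% of all genes). GstO3 and GstE10 had passed the threshold through w1118 alone and so had to differ, and of the 18 genes above 1 FPKM in all 4 libraries 12 were called, 6 each way, beside 28.3% of all genes so measured. GstE1 was at 22.5 and 24.4 FPKM in Fab2L and 10.1 and 10.9 in w1118 (1.09), while GstO3 was at 0.188 and 0.162 against 1.89 and 1.73 (-1.26). GstE10, which overlaps GstE1, had -1.14 and GstE7 0.91, and all 4 were called in each fit without 1 library.

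Cytochrome P450 enzymes gave 5 higher and 5 lower of 18 tested (55.6%, against 29.2% of all genes), out of 86 in the files. Cyp12c1 and Cyp317a1 had passed through w1118 alone. Of the 14 genes above 1 FPKM in all 4 libraries 4 were higher and 3 lower (50%, beside 28.3% of all genes so measured). Cyp12c1 had 0.0176 and 0 FPKM in Fab2L and 2.9 and 3.13 in w1118 (-1.99, limma adjusted p = 2.56e-06). Cyp4g1, which makes cuticular hydrocarbons, stood at 3.88 and 3.64 against 0.928 and 1.02 FPKM (1.27), and Cyp6a17 at 6.58 and 8.45 against 2.38 and 3.11 (1.18). Neither pair of groups overlapped. The UDP-glycosyltransferase list gave 2 higher and 1 lower of 6 tested (50%, against 29.2% of all genes).

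Immune genes were mostly below the threshold. None of 26 antimicrobial peptide genes was tested, and the 1 tested gene of Sting and its targets was not called. Of 15 genes of the Imd pathway, which responds to bacterial peptidoglycan, 3 were higher and 1 lower (26.7%, near the 29.2% of all genes), led by the adaptor gene Fadd (18.9 and 19.9 FPKM against 12 and 12, 0.65). On the Toll list of 8, with 1 higher and 2 lower (37.5%), GNBP3, a receptor for fungal glucans, was at 4.28 and 4.46 FPKM against 1.46 and 1.59 (1.09), and GNBP1 was at 0.872 and 1.12 against 2.77 and 2.96 (-0.96). Heat shock genes gave 1 higher and 3 lower of 17 (23.5%), all within 0.23 of 0. With the 20 most abundant RNAs removed the counts were 2 higher and 0 lower, and the limma fits without 1 library called 0 higher and 0 or 1 lower.

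Some RNAs of other tissues differed at low levels. ninaE, the main rhodopsin of the eye, was at 0.793 and 0.762 FPKM in Fab2L eggs and 7.06 and 6.2 in w1118 eggs, and at 1.45 and 1.66 in White* and 5.73 and 5.41 in Red*. ninaE had passed the threshold through w1118 alone and so had to differ. The 15 neuronal and photoreceptor markers, ninaE included, summed to 15.5 and 17.2 FPKM in Fab2L and 21.3 and 21.5 in w1118. ninaE alone differed by about as much as these sums did, so they show no deficit of the other markers. Of the 2 tested, 1 was called lower. In the other direction, apolpp of the fat body, TpnC4 of muscle and the yolk protein gene Yp2 were called higher in Fab2L. The levels of apolpp were 1.80 and 1.95 against 0.734 and 0.917 FPKM. These genes had passed the threshold through Fab2L alone and so had to differ. The part of RNA from other tissues in these low levels was not tested.

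Called genes were spread over all large chromosome arms, with fewer on X. The share called was 34.6% on 2L, 31.3% on 2R, 33.5% on 3L and 25.9% on 3R, and 21.6% of 1153 genes on X. Without the histone copies it was 31.6% on 2L. Of 1820 placed and called genes outside the histone array, 32.7% had a neighbour among the tested genes called in the same direction, where 26.3% of all placed genes had a neighbour called higher and 26.3% one called lower. Of the 60 lncRNAs, 20 were called lower and 4 higher (33.3% and 6.67%, against 14.6% each way of all genes). Protein-coding genes were balanced at 928 higher and 869 lower of 6248.

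The same lines were also compared in long RNA of heads of adult males, aged 4 days. In heads, 299 of the 6624 genes (4.51%) were called between Fab2L and w1118, 156 higher and 143 lower. Depth was lower in heads of Fab2L (13.6 and 15.1 M reads) than of w1118 (31.4 and 25.8 M). Of the genes called in eggs, 163 were called in heads as well, which is 8.42% of the egg calls and 54.5% of the head calls, and 129 of the 163 went the same way.

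The difference between tissues was tested directly for each gene. The Fab2L minus w1118 difference of eggs was above that of heads for 374 genes and below it for 416 (limma interaction, 11.9% of 6624). Of these 790 genes, 601 were called in eggs, and 536 of the 601 were not called in heads. Without 1 egg library the tissues differed for 503 to 573 genes, fewest without w1118 replicate 2 (503), Fab2L replicate 2 (514) and w1118 replicate 1 (518).

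Some of the largest differences were much larger in eggs. CG12560 differed by -5.12 in eggs and -0.77 in heads (difference -4.35, limma adjusted p = 1.99e-07), CG4570 by 4.03 and 0.55 (3.48, adjusted p = 4.29e-07) and narya by -3.04 and 0.43 (-3.47, adjusted p = 1.09e-08). In heads CG4570 was low, below 1 FPKM in both lines, and so was narya in w1118 heads, at 0.686 and 0.424.

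Other egg differences were shared with heads. CG30054 was at 3.84 and 4.72 FPKM in Fab2L heads and 54.1 and 49.7 in w1118 heads, a difference of -3.33 beside -3.53 in eggs, and the difference between tissues was not called (-0.20, limma adjusted p = 0.463). His1:CG33855 and His1:CG33858 were likewise higher in both tissues (2.96 and 2.38, adjusted p of the difference 0.0663). GILT3 was lower in both but less so in heads (-3.31 and -2.15, adjusted p = 0.000485).

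Opposite directions, and larger head differences, occurred too. piwi fell by 0.50 in eggs and fell by 2.20 in heads, Psf1 rose by 0.72 in eggs and fell by 1.28 in heads, and GNBP3 rose by 1.09 in eggs and fell by 0.71 in heads. The limma adjusted p of the difference was 0.000251, 7.45e-06 and 1.23e-06. The largest difference between tissues belonged to CG16826, at 1.49 and 2 FPKM against 0.387 and 0.54 in eggs and at 2.9 and 0.606 against 104 and 27.2 in heads (5.34, adjusted p = 0.000214), followed by CG12560 (-4.35) and TpnC4 (4.17). CG16826 and TpnC4 had passed the egg threshold through Fab2L alone. The first w1118 head library stood apart by its yolk protein RNA, with Yp1 at 110 FPKM and 0.879 in the second. Without it, 849 genes differed between tissues.

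**Figure D5:**
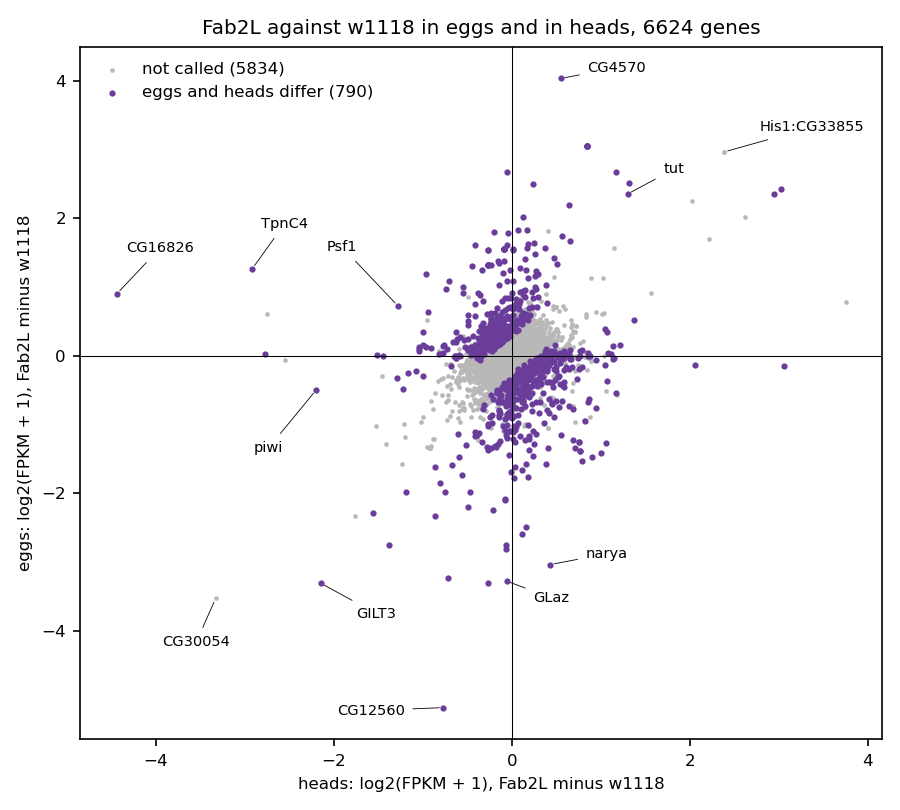
Difference in log2(FPKM + 1), Fab2L minus w1118, in eggs (vertical axis) against heads (horizontal axis) for the 6624 genes, with the 790 genes whose differences differ between the tissues in purple. CG12560, CG4570, narya and GLaz lie near the vertical line of no head difference, whereas CG30054 and His1:CG33855 lie near the diagonal.

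Small RNA of 18 to 30 nt from eggs of the same lines gave counts on miRNA hairpins, 0.317 and 0.270 M for Fab2L and 0.431 and 0.503 M in w1118. Of 76 tested hairpins, 15 were called higher and 34 lower in Fab2L (64.5%, edgeR quasi-likelihood test with Benjamini-Hochberg adjustment). The split between directions moved with the library left out, with 18 higher and 20 lower without Fab2L replicate 2, 8 and 31 without w1118 replicate 1 and 20 and 25 without w1118 replicate 2, and with 20 and 28 in DESeq2. The hairpins named here were chosen after their values were seen. Levels are given as CPM, counts scaled to the library total with TMM factors.

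mir-986 had 634 and 622 counts in Fab2L and 36 and 60 in w1118, or 1671 and 1992 CPM against 85.9 and 117 (log2 fold change 4.16, edgeR adjusted p = 2.35e-11). White* and Red* eggs resembled Fab2L, between 1696 and 1877 CPM. mir-956 was higher as well, at 4577 and 4782 CPM against 1667 and 1533 (1.55, adjusted p = 1.53e-08).

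mir-286, of the miR-309 cluster that the embryo transcribes when its genome becomes active, had 22 and 21 counts in Fab2L and 822 and 1101 in w1118 (-5.04, edgeR adjusted p = 2.35e-11). mir-5 of the same cluster was lower too (5 and 5 counts against 39 and 57, -2.81, adjusted p = 0.000117). For both hairpins the Fab2L counts were below the w1118 counts in every library. Of the 20 early zygotic mRNA markers, 14 were at 0 in all 4 long RNA libraries, those of w1118 included, and 19 stayed below 1 FPKM. The cause of the lower mir-286 and mir-5 counts was not tested. mir-957 had 11 and 8 counts against 241 and 324 (-4.45), and mir-315, mir-981, mir-284 and mir-210 fell by 3.93 to 4.65. These 4 folds rest on few Fab2L counts, 1 and 1 for mir-315, 4 and 0 for mir-981, 5 and 4 for mir-284 and 0 and 2 for mir-210. Red* eggs stood above Fab2L eggs for each of these hairpins. For mir-957 the levels were 321 and 396 CPM in Red*, 62.3 and 53.7 in White*, 29 and 25.6 in Fab2L and 575 and 633 in w1118. Among abundant hairpins, mir-312 was at 136964 and 137479 CPM in Fab2L against 230897 and 226678 (-0.74, adjusted p = 8.5e-06), whereas its cluster neighbour mir-311 was at 283226 and 298653 against 305735 and 284822, which overlap.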

How the data were processed

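Long RNA values are FPKM of each gene as deposited, and STAR 2.5, DESeq2 and build dm6 are named per the submitters' processing notes. The counting tool, its use of strand and the annotation are not given in the sources used here. Annotated spans of many named genes, among them cort, Nuf2, qin, piwi and TpnC4, overlap another gene, and reads of such partners could not be separated. Values of a gene were whole multiples of 1 step in each library, and whole reads were worked back for all 194923 values above 0 (tolerance 0.001). The steps matched scaling by size factors to within 0.479% rather than by total reads. The deposited miRNA hairpin counts were used as counts, and Bowtie appears among the tools per the submitters' processing notes.

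FPKM were tested with limma 3.58.1 (trend) on log2(FPKM + 1), 4 lines and 8 egg libraries in 1 fit, and for tissues with 16 libraries. p-values were adjusted over the 6624 genes. This scale understates differences of genes near or below 1 FPKM. Recovered reads were tested with edgeR 4.0.16 and DESeq2 1.42.0 as alternatives, and hairpin counts with edgeR after TMM and filterByExpr. Libraries of a line differed by a chi-square per degree of freedom of 13.1 to 51.5, so none is a copy.

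Named genes are the 10 called higher and 10 called lower without overlap and with the largest differences, the 5 each way at a mean of 20 FPKM or more, up to 4 called genes per list, w, and 5 from the comparison of tissues. The members and lists were chosen with earlier results of these data known. Symbols were matched for 17252 of 17558 identifiers, and positions are RefSeq's on dm6. The extraction text of the egg libraries names adult male heads, and titles and source names were followed instead. Replicate numbers come from the titles.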

Additional observations from a re-analysis of the deposited data

Results flagged for a closer look

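The Fab2L minus w1118 difference was tested between eggs and heads for each gene (limma interaction, adjusted p under 0.05), and 790 genes differed. Values in parentheses are the egg difference minus the head difference on the log2(FPKM + 1) scale, for those named genes that passed. Their causes were not tested.

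The egg difference lay above the head difference for CG16826 (5.34), TpnC4 (4.17), CG4570 (3.48), CG9380 (2.72), His2B:CG33908 (2.02), Psf1 (2.00), Ugt35A1 (1.99), GNBP3 (1.80), piwi (1.70), His2B:CG33902 (1.67), His2B:CG33910 (1.54) and Rdh1 (1.49). Each of the 5 His3 copies from CG33818 to CG33830 had 2.21, and these copies can share reads. In heads His3:CG33830 was called higher too (0.84, limma adjusted p = 0.0104), at 1.14 and 1.04 FPKM in Fab2L against 0.123 and 0.217 in w1118. His2B:CG33908 was also low in heads, at 0.127 and 0.231 against 0.545 and 0.579. Head differences at such levels are understated on this scale, which enters the values given here. Smaller values above 0 belonged to Cyp4g1 (1.19), GstE1 (1.08), tut (1.04), Cyp6a17 (0.89), ND-42 (0.61), PolE1 (0.43), Chd1 (0.37) and mor (0.33).

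The egg difference lay below the head difference most for CG12560 (-4.35), narya (-3.47), GLaz (-3.22), CG12519 (-3.04), RpS10a (-2.74), lncRNA:CR43837 (-2.69), sncRNA:CR43603 (-2.52), snRNA:U1:95Cc (-2.43), snRNA:U2:38ABa (-2.15) and snRNA:U2:14B (-2.14). It was also below for snRNA:U2:34ABa (-2.05), His2B:CG33868 (-1.71), Cyp12c1 (-1.52), GstE10 (-1.41), Ugt36E1 (-1.37), Cyp317a1 (-1.34), RpS2 (-1.23), GILT3 (-1.16), qin (-1.16), mRpL2 (-1.12), RpLP0 (-1.09), Rel (-1.05), sta (-1.04), GstO3 (-0.91), cort (-0.81) and Nuf2 (-0.80). Values nearer to 0 belonged to mRpL54 (-0.75), mRpS28 (-0.73), Gasz (-0.62), spz (-0.59), mtrm (-0.55), tud (-0.46), bam (-0.46), how (-0.43), imd (-0.43), borr (-0.42), Su(var)3-9 (-0.39), AGO2 (-0.38) and Pc (-0.37). The small nuclear RNAs among these are short, and the values by length stand with the results above. CG12519 was below 1 FPKM in heads of both lines, at 0 and 0 in Fab2L and 0.216 and 0.191 in w1118.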

How the results depend on the processing

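The count of 1936 called genes was within 1.5 times of itself under both other pseudocounts (1915 and 1970), all other filters (1723 to 1952), median centring (1926), removal of the 20 most abundant RNAs (1822), a fit of 4 libraries (1884), edgeR (2053) and DESeq2 (1874) on recovered reads, and without genes under 300 bases (1893, chosen after seeing the data). Leaving out 1 library gave 1150 to 1450 calls for genes in eggs, 503 to 573 of 790 for the difference between tissues, and 38 to 45 of 49 for hairpins, with 8 to 20 higher and 20 to 31 lower. The lower counts come from fits with fewer samples, in which the lone library is assumed to vary like the other lines. Leaving out 1 of the w1118 head libraries, also chosen after seeing the data, gave 849 and 610 for tissues.

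Replicate numbers were not shown to pair libraries. Deviations of same-numbered Fab2L and w1118 libraries correlated at 0.372, and those of other pairs of lines between -0.2 and 0.186. The fit with the replicate block called 1994 genes, 739 genes between tissues and 50 hairpins. Direction was compared for 108 to 121 of the 121 named genes in each alternative to the egg fit, and none changed; the fits without a head library were not compared in this way. Most calls lost were without w1118 replicate 1 (34 of 121) and without Fab2L replicate 2 (32). Depth of 27.8 to 35.6 M reads leaves genes near 1 FPKM with few reads, and hairpin totals below 1 M leave rare miRNAs with single counts. Counting error is the only error these depths bound.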
